A study of Mus musculus with 32 samples.

Results

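The 10 genes described here carry peptides to the cell surface for T cells to read, or switch that machinery on. They are the class I heavy chains H2-K1 and H2-D1, the light chain B2m, the peptide transporter Tap1 and Tap2, the loading chaperone Tapbp, the immunoproteasome subunits Psmb8 and Psmb9, and the transactivators Nlrc5 and Ciita. Members were chosen by name, and an open-chromatin peak was assigned to a gene when that gene's model was the nearest protein-coding model within 50 kb. In peak lists cut to equal length, 18 of 31846 regions were linked to the 10 genes, and 16 of them entered the 23554 regions that were tested. The uncut lists held 57 such regions of 146713.

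Class I molecules display fragments of proteins made inside the cell. The immunoproteasome cuts the proteins, TAP moves the fragments into the endoplasmic reticulum, tapasin (Tapbp) helps load them, and B2m holds the heavy chain in shape. Nlrc5 is the main transactivator of class I genes, and Ciita is the main transactivator of class II genes, which display material taken up from outside. Interferon and NF-kB signalling are known inducers of this pathway.

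Chromatin was profiled by ATAC-seq, in which a transposase inserts adapters into open DNA, in mouse bone marrow stem and progenitor cells (HSPCs; Lin- cKit+ Sca1+). The sorted cells were C57BL/6J wild-type donor cells (CD45.1+/2+). In AF9-experienced mice, 800000 wild-type marrow cells had been given to lethally irradiated C57BL/6J recipients (CD45.2) with 200000 iMLL-AF9 cells (CD45.1, homozygous for hMLL-AF9 and rtTA), in which doxycycline turns on a leukaemia fusion. In naive mice the 200000 cells were hMLL-AF9-null and carried rtTA only. From 6 to 8 weeks after transplantation came 5 weeks of doxycycline and then 4 weeks without it; the design text does not set the naive mice apart in this. Mice then received PBS or LPS, a bacterial lipopolysaccharide, and were killed 24 hours later. Naive mice gave 4 biological replicates after PBS and 3 after LPS, and AF9-experienced mice gave 4 and 5, with 1 peak list for each. P-values measure the spread between these samples.

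Lists held 19448 to 88816 peaks, and 3 were short, at 19448 (naive PBS 1), 25685 (AF9-experienced PBS 1) and 39464 peaks (naive LPS 3). Over the strongest 19100 peaks the median fold enrichment was 13.9 to 19.4 in the other 6 PBS lists and 9.16 to 13.6 in the other 7 LPS lists, so it moved with treatment. Gene-end peaks were found for 9 of 10 HSPC markers, 6 of them in every list; Ly6a, which encodes the Sca1 of the sort, had none. Of 8 B lymphocyte markers, 2 had a gene-end peak and Ms4a1 and Pax5 had none in any list. Of 8 monocyte-macrophage markers, 6 had one, and their summed rank was 20.8 to 49.5 in PBS lists and 63.6 to 106 in LPS lists. Chromosome Y held 2 peaks in each naive LPS list, 3 and 2 in AF9-experienced LPS 1 and 2, and 0 or 1 in the other lists. The part of these differences in the results below was not tested, except where values without the short lists are given.

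The sequences before the class I starts are shown because these regions are among the strongest linked to the 10 genes and share a motif layout. RefSeq promoter sequences (GRCm38.p6) matched 7 of the 10 genes. Bases run 5′ to 3′ on the gene's strand, and capitals mark matches to the IRF core AANNGAAA, the NF-kB consensus, the CRE core TGACG and the Y box ATTGG, on either strand. Positions are counted from the annotated start, negative upstream. The H2-D1 stretch is chr17:35262894-35263093 (plus strand), the B2m stretch is chr2:122147487-122147686 (plus strand), and the H2-K1 stretches are chr17:34000430-34000458 and chr17:34000359-34000388 (minus strand).
H2-D1: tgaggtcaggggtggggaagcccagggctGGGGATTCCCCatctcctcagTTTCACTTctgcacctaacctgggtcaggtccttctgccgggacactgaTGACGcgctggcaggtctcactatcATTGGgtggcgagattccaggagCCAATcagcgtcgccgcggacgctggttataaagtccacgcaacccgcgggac
B2m: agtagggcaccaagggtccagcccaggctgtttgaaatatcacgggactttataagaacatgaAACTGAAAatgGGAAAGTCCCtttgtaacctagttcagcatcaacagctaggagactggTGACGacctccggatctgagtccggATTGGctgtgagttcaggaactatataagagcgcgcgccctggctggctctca
H2-K1 upper stretch: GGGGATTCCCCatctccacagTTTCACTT
H2-K1 lower stretch: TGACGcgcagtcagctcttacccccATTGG

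In all 3 genes, TGACG was followed 20 bases later by ATTGG on the same strand. This pair lay at -41 to -12 in H2-K1, at -101 to -72 in H2-D1 and at -78 to -49 in B2m. The H2-K1 start used, 34000347, lies inside the gene model, whose upper end is 34000619. Motif and summit positions for H2-K1 depend on that start, while the starts of H2-D1 and B2m are the ends of their models. Among 32851 promoters in the table, searched over the 250 bases before the start, 0.381% held the pair with 15 to 25 bases between its parts. That spacing was set after these sequences had been read. An IRF core and an NF-kB match also stood upstream of the pair in each of the 3 genes. The layout was not limited to class I. Before the class II gene H2-Aa the pair stood at -74 to -44, with 21 bases between its parts. An IRF core and NF-kB matches lay upstream of it there too. Over all promoters, 21.3% held an IRF core, 7.25% an NF-kB match, 17.8% the CRE core and 33.8% the Y box. At an offset of 60 bases, the H2-K1 and H2-D1 promoters were identical at 127 of 140 bases (90.7%). Reads from such near-identical copies can be shared between them or lost, and how the authors treated multi-mapping reads is not given in the sources used here, so the levels of H2-K1 and H2-D1 are uncertain to that extent.

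Each region was valued in each list by its percentile rank: 100 is the strongest of the 19100 strongest autosomal peaks and 0 means no peak among them. The value is a rank, not an amount of open chromatin, and differences are in percentile points. Where the 3 short lists are left out, the others are cut at 59609 peaks. Naive mice then have 3 PBS and 2 LPS lists, and AF9-experienced mice 3 and 5. A point spans more peaks in a longer list, so points from lists of different length are not on 1 scale. Gene models without strand or exons were used, so "lower end" and "upper end" mean the end with the smaller or larger coordinate, within 1 kb. Exon and intron positions within a gene are not used here. Statements that groups overlap or do not overlap are descriptions. The share of all tested regions whose groups do not overlap was not counted.

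Open chromatin at the class I heavy chain H2-K1 had the highest mean rank of the gene ends, not separated from Psmb9/Tap1, and no group difference beyond the replicate spread was detected. Its upper end, which holds the annotated start (chr17:33998863-34000882), ranked 92.5, 81.7, 90.5 and 86.9 in naive PBS and 92.5, 90.2 and 82.2 in naive LPS. It ranked 89.6, 89.4, 92.9 and 87.7 in AF9-experienced PBS and 85.8, 89.5, 90.2, 87.6 and 92.0 in AF9-experienced LPS. All 4 groups overlapped. The LPS difference was 0.388 points in naive mice (95% interval -5.36 to 6.14) and -0.903 in AF9-experienced mice (-5.95 to 4.15).

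The start of H2-D1, the other classical heavy chain measured here, ranked higher after LPS in both backgrounds, without passing the test. This region (chr17:35262577-35264521) ranked 67.5, 73.6, 78.5 and 69.4 in naive PBS and 85.6, 78.5 and 78.7 in naive LPS. In AF9-experienced mice it ranked 79.9, 80.4, 75.3 and 75.6 after PBS and 84.2, 85.4, 86.0, 89.0 and 82.9 after LPS. The treated and control lists did not overlap in either background, although in naive mice the nearest pair was 78.45 against 78.51. Under limma with Benjamini-Hochberg adjustment over all tested regions, the difference was 8.74 points in naive mice (SE 3.23, adjusted p = 0.160). It was 7.70 points in AF9-experienced mice (SE 2.83, adjusted p = 0.125). In lists cut at 59609 peaks, without the 3 short ones, these were 2.65 (adjusted p = 0.164) and 2.70 points (adjusted p = 0.0601), and with uncut lists 6.53 and 3.53 points (adjusted p = 1 and 0.9002). After PBS, AF9-experienced lists averaged 77.8 ± 2.73 and naive lists 72.2 ± 4.89 (SD, n = 4 each), and the limma difference was 5.58 points (SE 2.99, adjusted p = 1), or 1.05 without the 3 short lists (adjusted p = 1).

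A second H2-D1 region, 7.0 kb above the gene model (chr17:35274462-35275245), ranked lower after LPS in the group means. It ranked 36.9, 23.1, 26.9 and 17.7 in naive PBS, against 0, 13.4 and 0 in naive LPS. After PBS in AF9-experienced mice it ranked 0, 22.2, 13.8 and 27.6, and after LPS it was 0 in all 5 lists. The limma difference was -21.7 points in naive mice (SE 7.28, adjusted p = 0.115) and -15.9 in AF9-experienced mice (SE 6.39, adjusted p = 0.164). Lists cut at 59609 peaks, without the 3 short ones, gave -7.37 in naive (adjusted p = 0.637) and -20.3 in AF9-experienced mice (adjusted p = 0.0516). A value of 0 is not an absence here, since 15 of the 16 uncut lists hold a peak in this region, with the authors' fold enrichment between 2.91 and 19.8. Scored only by whether an uncut list holds a peak, the AF9-experienced difference was 0.25 in the opposite direction. Another region, 3.7 kb below H2-D1 (chr17:35258942-35259431), ranked 0 to 31.5 in naive PBS, 9.31 to 51.7 in naive LPS, 0 to 34.7 in AF9-experienced PBS and 28.7 to 61.2 in AF9-experienced LPS, and the groups overlapped.

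B2m, the light chain common to all class I molecules, had 1 region (chr2:122146781-122148827), which holds its start and also lies inside the model of Patl2. It ranked 86.0, 72.7, 66.5 and 69.6 in naive PBS and 77.9, 85.9 and 80.3 in naive LPS. In AF9-experienced mice it ranked 79.3, 72.5, 68.3 and 68.5 after PBS and 75.6, 76.4, 74.4, 72.1 and 77.0 after LPS. The highest value in each PBS group came from its short list. The LPS difference was 7.67 points in naive mice (95% interval -1.09 to 16.4) and 2.97 in AF9-experienced mice (-4.73 to 10.7). Without the 3 short lists, with lists cut at 59609 peaks, the naive difference was 3.95 points and passed the test (limma adjusted p = 0.0475). That naive comparison held 2 LPS and 3 PBS lists. In AF9-experienced mice the B2m region was not called under this setting.

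**Figure D1:**
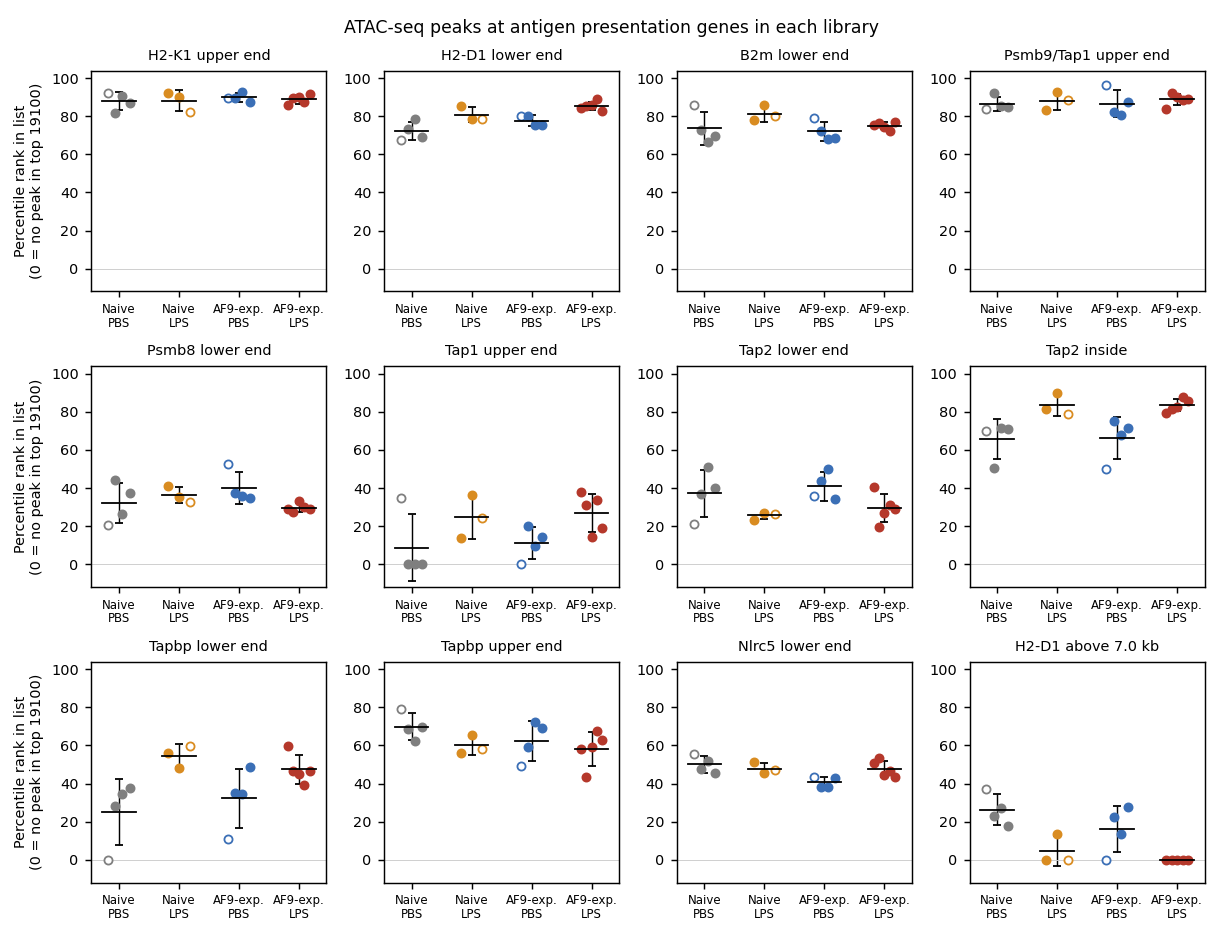
Percentile rank (y axis, 0 to 100) of 12 regions in each of the 16 lists, by group (x axis); points are lists, open points the 3 short lists, bars the mean and SD. The inner Tap2 region is at 79.0 or more in every LPS list and at 75.3 or less in every PBS list, while the H2-K1 start stays between 81.7 and 92.9 in all 16.

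The summit of the strongest peak gives a position that the ranks do not use. At H2-K1 the summit lay at -26, -27, -13 and -27 bp from the start in naive PBS and at -22, -27, -13 and -27 in AF9-experienced PBS, inside the spaced TGACG and ATTGG pair in all 8 PBS lists. After LPS it lay at -43, 8 and -45 in naive mice and at -72, -18, -85, -26 and -73 in AF9-experienced mice, inside the pair in 2 of 8 lists. At H2-D1 it lay inside the pair in 5 of 8 PBS and 3 of 8 LPS lists. The other summits at H2-D1 were upstream of the pair, down to -191 bp, except in naive PBS 1 at -45. At B2m, 12 of 16 summits were upstream of the pair, with a median of -88.5 bp. Mean summit positions after LPS and PBS were compared by exact two-sided permutation at 7 starts in 2 backgrounds. The 7 comparisons in naive mice could not reach 0.05 with these numbers, and none of the 7 in AF9-experienced mice did. The smallest p was 0.143 (adjusted p = 1), for H2-K1 in AF9-experienced mice, where the mean was -54.8 ± 30.5 bp after LPS (SD, n = 5) and -22.3 ± 6.60 bp after PBS (SD, n = 4). The smallest p this test can give is 0.0571 with 3 against 4 lists, 0.1 with 3 against 3 (Tapbp in naive mice) and 0.0159 with 5 against 4.

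**Figure D2:**
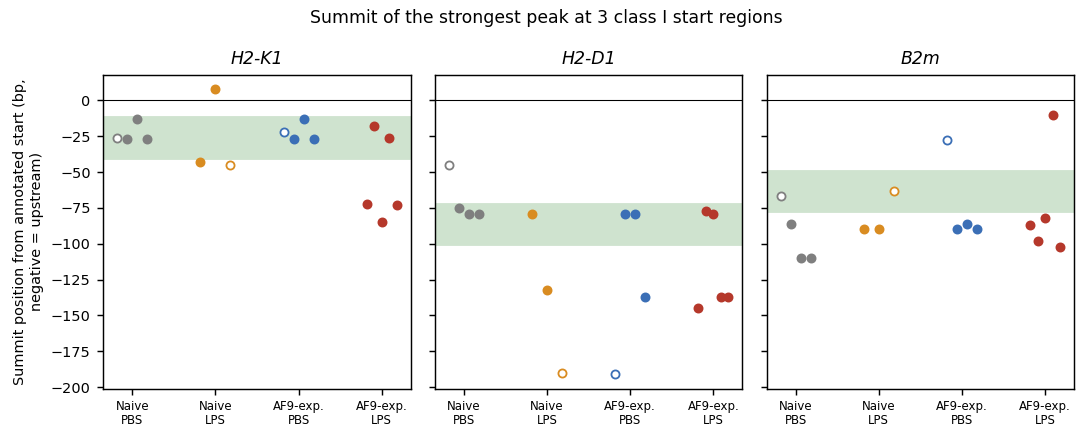
Summit position of the strongest peak in base pairs from the annotated start (y axis, negative upstream) for H2-K1, H2-D1 and B2m in each list, by group (x axis); open points are the 3 short lists and the green band is the spaced motif pair. All 8 PBS summits at H2-K1 lie in the band; LPS summits there range from -85 to 8.

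Tap1 and Psmb9 lie head to head and share a single region (chr17:34186651-34188329). Tap1 forms the transporter with Tap2, and Psmb9 is a catalytic subunit of the immunoproteasome. The 225 bases between the gene models (chr17:34187331-34187555, plus strand, with Psmb9 to the left and Tap1 to the right) are shown because every list placed its strongest summit there.
Psmb9-Tap1: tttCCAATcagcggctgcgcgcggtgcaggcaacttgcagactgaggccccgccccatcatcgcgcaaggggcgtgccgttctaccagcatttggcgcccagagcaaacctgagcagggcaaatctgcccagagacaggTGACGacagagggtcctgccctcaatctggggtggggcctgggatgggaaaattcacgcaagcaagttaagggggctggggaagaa
Capitals mark the same motifs as above. No IRF core and no NF-kB match was found in the 250 bases before either start. A GC box, GGGCGG, stood at -55 to -50 from the Psmb9 start, and 32.7% of all promoters held one.

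This shared promoter held a peak among the 19100 strongest in every list. It ranked 83.7, 92.0, 85.6 and 84.9 in naive PBS, 83.4, 92.8 and 88.4 in naive LPS, 96.4, 82.1, 80.5 and 87.7 in AF9-experienced PBS, and 84.1, 92.3, 90.3, 88.7 and 89.0 in AF9-experienced LPS. The groups overlapped throughout. The LPS difference was 1.66 points in naive mice (95% interval -5.23 to 8.55) and 2.18 in AF9-experienced mice (-3.88 to 8.23). The summit lay at -123 to -116 bp from the Tap1 start in all 16 lists, with the same summit serving Psmb9.

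Tap2, the other subunit of the transporter, held the only region of the 10 genes that passed the test. This region (chr17:34210418-34211125) lies inside the Tap2 model, away from both ends. It ranked 70.1, 50.3, 71.3 and 71.1 in naive PBS and 81.4, 90.2 and 79.0 in naive LPS. In AF9-experienced mice it ranked 50.2, 75.3, 67.9 and 71.6 after PBS and 79.5, 81.7, 82.7, 87.8 and 85.5 after LPS. By these equal-length ranks, all 8 LPS lists were above all 8 PBS lists. The region held a peak in every uncut list, with the authors' fold enrichment between 4.88 and 16.8. That ratio was 16.003 to 16.8 in AF9-experienced PBS 2 to 4, 4.88 in PBS 1 and 11.2 to 14.8 in AF9-experienced LPS. Its list median also moved with treatment. By uncut ranks the naive groups overlapped, with LPS 3 at 89.66 and PBS 3 and 4 at 93.03 and 92.80. The AF9-experienced groups did not, with 94.57 (LPS 3) nearest to 94.54 (PBS 2). Limma differences in uncut lists were 8.85 points in naive and 9.53 in AF9-experienced mice (adjusted p = 0.547), and neither passed.

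The LPS difference at the inner Tap2 region was 17.2 points in AF9-experienced mice (SE 4.80, limma adjusted p = 0.0391) and 17.8 points in naive mice (SE 5.47, adjusted p = 0.0799). The difference between these 2 responses was -0.629 points (95% interval -15.7 to 14.5, limma adjusted p = 0.9998). The AF9-experienced call was lost without AF9-experienced PBS 1, where the value was 11.8 (adjusted p = 0.108), and also without AF9-experienced PBS 3 or 4, or AF9-experienced LPS 2, 3, 4 or 5. Without the 3 short lists, with lists cut at 59609 peaks, the difference was 3.79 points in AF9-experienced mice (limma adjusted p = 0.0752). It was 6.90 points in naive mice (adjusted p = 0.0207), with 2 LPS and 3 PBS lists left. A point of these longer lists spans more peaks, so these sizes do not compare with 17.2 and 17.8.

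The lower end of Tap2 (chr17:34203549-34206327) had lower means after LPS. It ranked 21.3, 36.7, 51.2 and 39.8 in naive PBS and 23.4, 26.9 and 26.5 in naive LPS. In AF9-experienced mice it ranked 35.5, 43.9, 49.99 and 34.1 after PBS and 40.7, 19.7, 27.1, 30.8 and 29.2 after LPS. The groups overlapped in both backgrounds, and the LPS differences were -11.7 points in naive (95% interval -28.7 to 5.396) and -11.4 in AF9-experienced mice (-26.4 to 3.61). Another region, 2.2 kb above Tap2 (chr17:34218472-34219395), was among the 19100 strongest peaks in 6 lists. It ranked 21.3 in naive PBS 2 and 0 in the other naive PBS lists, and 0, 30.7 and 52.3 in naive LPS. In AF9-experienced lists it was at 5.74 in PBS 1, 10.8 in LPS 1, 1.12 in LPS 2 and 0 in the rest. The limma LPS difference in naive mice was 22.4 points (SE 8.37, adjusted p = 0.167). It was 36.2 without naive LPS 1, itself at 0 (adjusted p = 0.0140), 10.04 without naive LPS 3 (adjusted p = 0.550) and 10.02 without the 3 short lists (adjusted p = 0.679). After LPS, AF9-experienced minus naive was -25.3 points (SE 8.00, limma adjusted p = 0.726). It was -39.1 points without naive LPS 1 (adjusted p = 0.0491), -13.0 without naive LPS 3 (adjusted p = 1) and -10.1 without the 3 short lists (adjusted p = 0.963). The difference between the LPS responses at this region was -21.4 points (SE 11.1, adjusted p = 0.9998) and changed sign, to 7.62, without the 3 short lists.

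**Figure D3:**
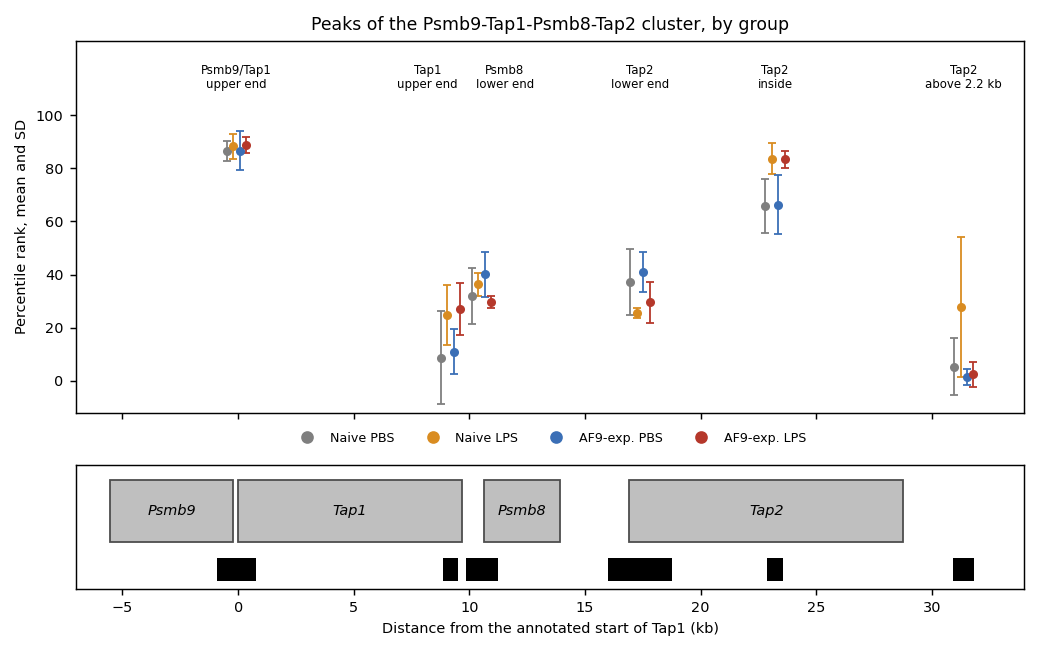
Mean percentile rank with SD (upper panel, y axis) of the 6 regions along the Psmb9-Tap1-Psmb8-Tap2 cluster, by group, against distance from the annotated start of Tap1 in kb (x axis); grey bars are gene models and black bars the regions. The LPS means at the inner Tap2 region, 83.5 and 83.4, stand above the PBS means, 65.7 and 66.3, while the shared Psmb9/Tap1 promoter has means from 86.6 to 88.9.

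At the facing ends of Tap1 and Psmb8, the other immunoproteasome subunit, lay 2 weaker regions. The upper end of Tap1 (chr17:34196423-34197070) ranked 35.0 in naive PBS 1 and 0 in the other 3 naive PBS lists, and 13.6, 36.5 and 24.2 in naive LPS. In AF9-experienced mice it ranked 0, 19.9, 9.60 and 14.3 after PBS and 37.6, 30.9, 14.2, 33.5 and 19.1 after LPS. The only naive PBS list above 0 was a short one. The LPS difference was 16.03 points in naive mice (95% interval -3.71 to 35.8) and 16.1 in AF9-experienced mice (-1.22 to 33.5). Without the 3 short lists, with longer lists, it was 17.5 points in naive mice (limma adjusted p = 0.0496), from 2 LPS and 3 PBS lists. In AF9-experienced mice this region was not called under that setting.

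The lower end of Psmb8, which holds its start (chr17:34197390-34198777), ranked 20.7, 44.0, 26.4 and 37.2 in naive PBS and 40.8, 35.5 and 32.5 in naive LPS. It ranked 52.7, 37.5, 35.6 and 34.6 in AF9-experienced PBS and 29.0, 27.4, 33.4, 29.9 and 28.7 in AF9-experienced LPS. The AF9-experienced groups did not overlap, with LPS lower, but the difference of -10.4 points did not pass (limma SE 6.84, adjusted p = 0.433). The Psmb8 summit switched between places, from -504 to 141 bp from the start. A GAS motif, TTCNNNGAA, which reads the same on both strands, stood at -97 to -89, and 7.02% of all promoters held one.

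Tapbp encodes tapasin, which bridges TAP and the class I molecule. Its lower end, which holds its start and touches the end of Zbtb22 (chr17:33919097-33920989), ranked 0, 28.1, 34.7 and 37.9 in naive PBS and 56.1, 48.0 and 59.9 in naive LPS. It ranked 10.9, 35.0, 34.4 and 48.6 in AF9-experienced PBS and 59.7, 46.6, 45.1, 39.1 and 46.7 in AF9-experienced LPS. The naive groups did not overlap and the AF9-experienced groups did, and in each background the lowest list was the short PBS list. The limma difference was 29.5 points in naive mice (SE 9.54, adjusted p = 0.0996) and 15.2 in AF9-experienced mice (SE 8.38, adjusted p = 0.335). The naive difference was 5.94 points in longer lists, without the 3 short ones (adjusted p = 0.128). With the median fold enrichment of each list as a covariate it was 37.8 points in naive mice (adjusted p = 0.00466). Where a peak had to cover at least 50% of the region, the naive difference was -16.5 points (limma adjusted p = 0.603). That setting scores peak width as well as rank. The region spans 1893 bp, and the strongest peaks of naive LPS 1 to 3 were 541, 766 and 775 bp wide. In naive PBS 2 to 4 they were 1787, 668 and 1807 bp wide.

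The upper end of Tapbp, shared with Rgl2 (chr17:33929180-33931657), had lower means after LPS. It ranked 79.3, 68.6, 62.1 and 69.8 in naive PBS, 56.2, 65.7 and 58.2 in naive LPS, 49.1, 59.0, 72.2 and 69.2 in AF9-experienced PBS, and 58.0, 43.5, 59.0, 67.4 and 63.0 in AF9-experienced LPS. The groups overlapped in both backgrounds. The LPS difference was -9.89 points in naive mice (95% interval -22.9 to 3.11) and -4.21 in AF9-experienced mice (-15.6 to 7.21).

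Nlrc5, the class I transactivator, was open at its lower end in every list (chr8:94433736-94434678). That region ranked 55.7, 47.7, 51.8 and 45.5 in naive PBS and 51.2, 45.4 and 47.0 in naive LPS. In AF9-experienced mice it ranked 43.3, 38.1, 38.1 and 43.2 after PBS and 50.8, 53.5, 44.4, 46.4 and 43.6 after LPS. AF9-experienced PBS lists were the lowest group and did not overlap with naive PBS, but the difference of -9.50 points did not pass (limma SE 5.61, adjusted p = 1). The LPS difference was 7.07 points in AF9-experienced mice (SE 5.33, adjusted p = 0.507) and -2.28 in naive mice (SE 6.06, adjusted p = 0.918).

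Most other Nlrc5 regions were weak. The uncut lists held 21 regions linked to Nlrc5, 1 of them in all 16 lists and 10 in 1 list only. A region inside the gene (chr8:94458561-94459168), named after its values were seen, had no peak in 3 of 4 naive PBS lists and in AF9-experienced PBS 1. Its full-list percentile rank, in which 100 is the strongest peak of an uncut list, was 8.86 in naive PBS 4 and 5.53, 5.57 and 1.75 in AF9-experienced PBS 2 to 4. After LPS it was 45.2, 19.3 and 0 in naive mice and 48.2, 47.3, 42.3, 0 and 46.7 in AF9-experienced mice. No test is given for it, since in lists cut at 59609 peaks it was present only in LPS lists. A region 15.9 kb below Nlrc5 (chr8:94417682-94418469) was 20.04 points higher after LPS in naive mice without the 3 short lists, with lists cut at 59609 peaks (limma SE 5.61, adjusted p = 0.0399). That fit held 2 LPS and 3 PBS lists of naive mice, and it did not call the region in AF9-experienced mice. In uncut lists this region ranked 0, 52.4, 58.3 and 59.4 in naive PBS and 77.0, 67.1 and 31.3 in naive LPS. In AF9-experienced mice it ranked 0, 69.8, 69.1 and 68.1 after PBS and 79.6, 70.8, 67.0, 61.9 and 64.2 after LPS. The groups overlapped in both backgrounds.

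Ciita, the class II transactivator, had no strong peak in these cells. In the equal-length lists it had 1 region, in naive PBS 1 only, at 6.49, so no Ciita region was tested. The uncut lists held 14 Ciita regions, none in all 16 lists and 8 in at least 3, and a list held between 0 (AF9-experienced PBS 1) and 10 (AF9-experienced PBS 2). The most widespread (chr16:10489232-10490451, inside the gene) had a full-list percentile rank of 6.49, 52.2, 49.6 and 47.8 in naive PBS and 65.5, 57.9 and 37.5 in naive LPS. It was at 0, 43.2, 56.1 and 47.7 in AF9-experienced PBS and at 51.6, 51.0, 8.62, 41.0 and 40.8 in AF9-experienced LPS. The strongest single Ciita value was 71.2, at a second inner region (chr16:10521135-10521657) in AF9-experienced PBS 2.

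A few weak Ciita regions were found mainly in PBS lists. The region 3.7 kb below the model (chr16:10475974-10476274) held a peak in 2 naive and 3 AF9-experienced PBS lists and in no LPS list. Another, inside the gene (chr16:10515940-10516436), held a peak in 3 PBS and 1 LPS list of naive mice and in 3 PBS lists of AF9-experienced mice. These are descriptions without a test, named after their values were seen, and the LPS lists also had the lower median fold enrichment given above.

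**Figure D4:**
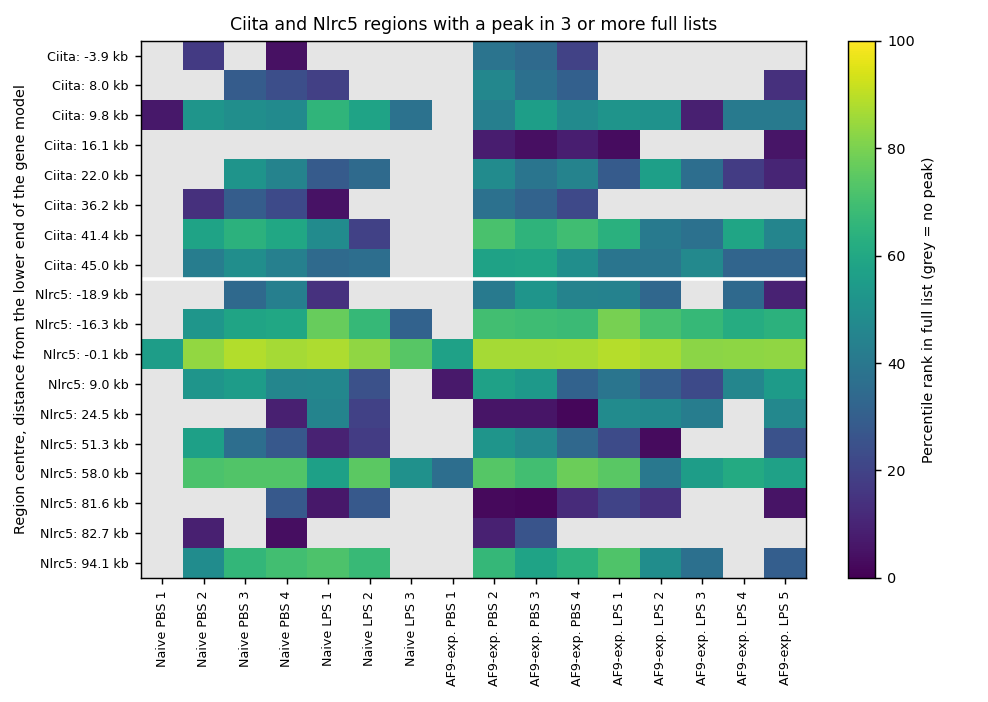
Full-list percentile rank (colour, 0 to 100; grey is no peak) of the 8 Ciita and 10 Nlrc5 regions with a peak in at least 3 uncut lists, by list (x axis) and by distance of the region's centre in kb from the lower end of the gene model (y axis). The Nlrc5 end is bright in all 16 lists, up to 88.9, and no Ciita value exceeds 71.2.

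Across the gene ends, the mean rank over 16 lists ran from H2-K1 (88.8 ± 3.38), Psmb9/Tap1 (87.6 ± 4.43), H2-D1 (79.4 ± 6.10) and B2m (75.2 ± 5.83) down to the upper end of Tapbp (62.5 ± 8.91), Nlrc5 (46.6 ± 5.04), the lower end of Tapbp (39.4 ± 16.3), Psmb8 (34.1 ± 7.65), Tap2 (33.5 ± 9.66) and the upper end of Tap1 (18.02 ± 13.9), all SD with n = 16. The order is a description. H2-K1 was above its neighbour Psmb9/Tap1 in 9 of 16 lists and Psmb8 above Tap2 in 8 of 16, so these neighbours did not separate. Tapbp's upper end was above Nlrc5 in 15 of 16. Of 10002 tested gene-end regions, 82.2% had a lower mean than H2-K1, 80.1% than Psmb9/Tap1, 67.4% than H2-D1, 61.4% than B2m and 32.2% than Nlrc5.

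The calls at the 10 genes are set here beside the shares over all regions. After LPS in naive mice, 0 of 16 member regions were called, where limma called 3.22% of all tested regions; at an unadjusted p under 0.05 there were 5 members, 4 higher and 1 lower, against 15.8% of all regions. In AF9-experienced mice 1 of 16 was called, against 5.18%, and 3 were past the unadjusted level, 2 higher and 1 lower, against 19.2%. The median LPS difference over the 16 regions was 3.82 points in naive and 1.56 in AF9-experienced mice, and 0 and -0.179 over all regions.

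Past exposure to iMLL-AF9 cells gave no call at the 16 tested regions in the main fit, and Ciita had no tested region. Comparing AF9-experienced with naive mice after PBS, limma called 0 of 16 member regions and 0% of all regions; at an unadjusted p under 0.05 the numbers were 0 members and 3.2%. After LPS, 0 of 16 were called against 0.0127%, and 1 was past the unadjusted level against 5.39%, the region 2.2 kb above Tap2. The difference between the 2 LPS responses gave 0 of 16 calls against 0% of all regions, and 0 past the unadjusted level against 2.94%. The member with the smallest p in each case is given above.

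**Figure D5:**
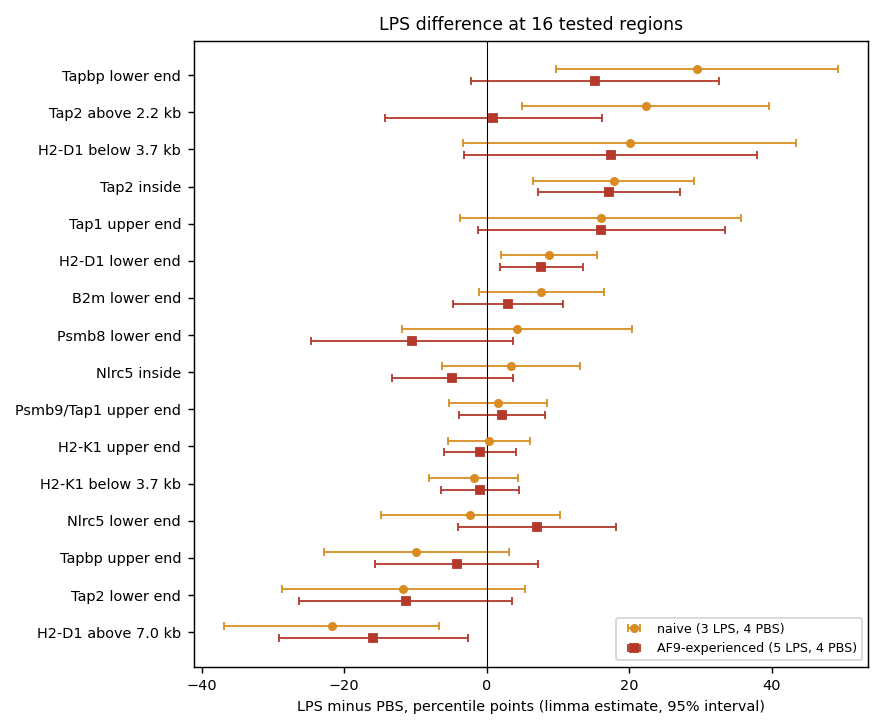
LPS minus PBS difference in percentile points (x axis) with its 95% interval from limma at the 16 tested regions (y axis), in naive and AF9-experienced mice. Both intervals lie above 0 at the inner Tap2 region and the H2-D1 start and below 0 at the region 7.0 kb above H2-D1; 1 of these 6 passed the adjusted test.

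Of 44 further genes of the pathway, 38 had a tested region, each counted by its region with the smallest p. These were 7 of 12 class I and class I-like genes, 9 of 9 genes of peptide supply and loading, 11 of 12 class II genes and 11 of 11 regulators. None was called after LPS in naive mice, where 3.22% of all regions were. In AF9-experienced mice 1 of 38 was called, where 5.18% of all regions were; a gene with several regions has several chances, so gene counts and region shares are not on 1 scale. The call was 1 of 8 tested regions linked to Irf2, a region inside this gene, an interferon regulatory factor (chr8:46764656-46765634). It averaged 26.5 ± 8.52 after PBS (SD, n = 4) and 50.1 ± 11.3 after LPS (SD, n = 5), a limma difference of 23.6 points (SE 6.90, adjusted p = 0.0485). No gene of these lists was called between naive and AF9-experienced mice after PBS or LPS, or for the difference between the LPS responses. Medians of the LPS difference were taken over all tested regions linked to the genes of each list. In naive and AF9-experienced mice they were 9.34 and 2.85 points for class I and class I-like genes. They were 0.693 and 0.567 for peptide supply and loading, 2.20 and 1.01 for class II genes and 0.453 and 0.904 for regulators.

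Markers of HSPCs and other cells moved in both directions after LPS, each gene counted by its region with the smallest p. In naive and AF9-experienced mice, 7 and 7 of 8 tested HSPC genes were not called. This held for 2 and 2 of 4 dendritic cell, 4 and 5 of 6 monocyte-macrophage and 2 and 3 of 3 neutrophil genes. No tested B lymphocyte, T and NK lymphocyte or erythroid gene was called. Over all regions limma called 3.22% and 5.18%, which is not on 1 scale with gene counts. A region linked to Batf3, a factor of dendritic cells, rose by 39.3 points in naive and 36.0 in AF9-experienced mice (limma adjusted p = 0.0107 and 0.00575). A region of Zbtb46, another dendritic cell factor, fell by 30.01 points in AF9-experienced mice (adjusted p = 0.0132). A region of Csf1r, the macrophage growth factor receptor, fell by 34.8 and 27.2 points (adjusted p = 0.00543 and 0.00809). A region of Cx3cr1, a monocyte receptor, rose by 26.8 points in naive mice (adjusted p = 0.0148). A region linked to Ltf, a neutrophil granule protein, fell by 22.995 points in naive mice (adjusted p = 0.0161). Flt3, a receptor of progenitors and also in the dendritic cell list, fell by 11.3 points at a gene-end region in naive mice (adjusted p = 0.0174), and a region of the stem cell factor Mecom fell by 27.4 in AF9-experienced mice (adjusted p = 0.0390). In sorted populations, fewer cells of a type and less open chromatin per cell cannot be told apart.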

How the data were processed

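ATAC-seq peak lists of 16 biological replicates were used, 1 list each; the labels give 2 technical samples per replicate (32 in all), and the lists carry the replicate's name. Per the submitters' processing notes, the build was GRCm38 and the tools listed are BWA, MACS3, Picard, FastQC and Trim Galore; versions and filters are not given in the sources used here. Per the labels, Omni-ATAC and a Chromium chemistry were both named. The deposited lists hold the fold enrichment (a ratio) and the -log10 p and -log10 q that the authors' caller gave each peak, used here only within a list. They do not show read depth.

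By -log10 p, the 19100 strongest autosomal peaks of each list were kept, and overlapping peaks were merged into 31846 regions. The 23554 regions present in 3 lists or more were tested with limma 3.58.1 in R 4.3.3 (trend, robust, 1 mean per group over all 16 lists), with Benjamini-Hochberg adjustment over all regions and calls at 0.05. A rank can move because others move. Regions were linked to 20560 protein-coding models (RefSeq, GRCm38.p6); a link is by position. The procedure was tested on simulated data.

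Members, gene lists and motifs were chosen with earlier results of these data known. Full values are given for each member's strongest gene-end region and the region of its start; differences for member regions with an unadjusted p under 0.05, or the smallest p. Alternatives, leaving out each list included, are in the closing section. Replicate numbers were not used as pairs in the main fit. Deviations from group means correlated at -0.215 to 0.231 between same-numbered lists of different groups. Between lists with different numbers the range was -0.302 to 0.241. Whether same-numbered samples share a batch is not labelled, and these correlations cannot settle it.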

Additional observations from a re-analysis of the deposited data

Results flagged for a closer look

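A list was marked where the highest or lowest value of a group of 4 or 5 stood apart from the others by Dixon's 95% criterion. Of 38 groups checked over 13 regions, 6 were marked. Chance marks about 1 in 20 groups of untied values; in 3 of the 6 the other lists were tied at 0, so any value above 0 was marked. At the upper end of Tap1, naive PBS 1, a short list, ranked 35.0 and the other 3 naive PBS lists 0. At the lower end of Psmb8, AF9-experienced PBS 1, also short, ranked 52.7 and the others 34.6 to 37.5. At the inner Tap2 region, naive PBS 2 ranked 50.3 and the others 70.1 to 71.3. At the region 2.2 kb above Tap2, 1 list stood apart in each of 3 groups: naive PBS 2 at 21.3, AF9-experienced PBS 1 at 5.74 and AF9-experienced LPS 1 at 10.8, where the others ranked 0 to 1.12.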

How the results depend on the processing

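For LPS in AF9-experienced mice, the count of called member regions was 1 of 16 tested. The number of member regions tested differed between settings. It was 0 with uncut lists, with 9550 peaks per list, with no filter on low values, with 50% cover, with presence scored in uncut lists or above a -log10 q of 5, with ranking by fold enrichment, and with the replicate block. It was 3 with library weights and 3 with median fold enrichment as a covariate. Leaving out 1 list gave 0 to 1. Without the 3 short lists it was 1 of 32 tested, but that call was an inner Nlrc5 region, present only in LPS lists there. It was not the inner Tap2 region. For LPS in naive mice the count was 0 of 16 tested. It was 4 of 16 with library weights, 2 of 16 with the median fold covariate and 4 of 32 without the 3 short lists. Leaving out 1 list gave 0 to 1 in naive mice. For AF9-experienced against naive mice after LPS the count was 0 to 1 when 1 list was left out. The remaining 2 comparisons gave 0 under every alternative run. The share of all regions called under each alternative is not given here, so these counts cannot be set beside it. The cause of these changes was not tested.

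At single regions, the inner Tap2 difference in AF9-experienced mice was 11.8 to 20.2 points when 1 list was left out (adjusted p 0.0163 to 0.108). With the replicate number as a block, it was 16.7 points (limma adjusted p = 0.0886), and the block changed no other count of calls. The region 7.0 kb above H2-D1 reversed in AF9-experienced mice when scored by presence: 0.25 in uncut lists and 0.05 above a -log10 q of 5. The interaction above Tap2 reversed to 7.62 without the short lists, and the lower end of Tapbp in naive mice reversed to -16.5 with 50% cover.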
